A study of Gallus gallus and Dromaius novaehollandiae with 40 samples.

Results

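The splanchnopleure of the chick embryo at the level of the future wing was compared with the undivided lateral plate from which it forms. The samples were picked by their labels: 3 splanchnopleure libraries (numbers 50, 61 and 64, stage HH13) and 3 lateral plate libraries (numbers 30, 31 and 32, stage HH10), 6 of the 40 samples in the series. HH stages are those of Hamburger and Hamilton, the standard series for the chick. Side by side with them stand 3 chick somatopleure libraries (HH13), and in the emu 2 splanchnopleure libraries (HH13; number 6 and a library named pool) and 3 lateral plate libraries (numbers 23 and 8 at HH10, number 1 labelled HH13). No treatment or genetic change is given for these Gallus gallus and Dromaius novaehollandiae embryos, and nothing in the labels ties a library to an embryo of its own. A p-value here thus reflects how far the libraries scatter, which may be technical scatter. Tissue and stage change together in the chick, so what belongs to the layer and what belongs to the later stage cannot be told apart by this comparison.

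The lateral plate is the mesoderm beside the somites and the intermediate mesoderm. It splits into an outer layer, which with the ectoderm is called the somatopleure and gives body wall and limb, and an inner layer, which with the endoderm is called the splanchnopleure and gives the wall of the gut and the vessels around it. Endoderm supplies hedgehog ligands to the splanchnic mesoderm, and that mesoderm later makes smooth muscle and connective tissue. In these data a bulk library holds all cells of the dissected piece, so more cells of a type and more RNA per cell cannot be told apart.

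Total counts ran from 6479606 to 8348865 in splanchnopleure and from 5061393 to 8243965 in lateral plate libraries. On the first principal component of the 9 early chick libraries (42.4% of the variance), splanchnopleure lay between 34.2 and 49.7, lateral plate between -7.69 and 4.02, and somatopleure between -40.9 and -34.6. The second (26.5%) separated the lateral plate (HH10) from both layers (HH13), where tissue and stage change together. Splanchnopleure lay between 8.87 and 20.7 and somatopleure between 17.9 and 24.5, against -43.8 to -26.3 in lateral plate. Levels are in CPM, scaled with TMM library sizes and not per length, so levels of different genes are not compared. Values of single libraries follow the order 50, 61, 64 for splanchnopleure and 30, 31, 32 for lateral plate.

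Of 10071 genes tested, 913 passed the test as higher in splanchnopleure (9.07%) and 784 as lower (7.78%). Counts of list members that passed, given below, are to be read beside these shares. The test was edgeR's quasi-likelihood F test with Benjamini-Hochberg adjustment over all genes and a threshold of 0.05. All adjusted p-values are from this test and two-sided. Much of the call rests on the full set of libraries: 816 genes passed without lateral plate 30, 848 without lateral plate 32 and 842 without splanchnopleure 64, against 1697 with all. A gene is therefore said to have risen or fallen only where it passed with all libraries and again in each of the 6 fits that left out a library, which 369 genes did upward (3.66%) and 283 downward (2.81%). Rises were larger than falls. The median log2 fold change of the genes that passed was 1.09 for the 913 higher genes and -0.55 for the 784 lower ones, and 180 against 68 exceeded 2 in size. The median over all genes tested was 0.01.

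The largest rises were of genes that were almost silent in the lateral plate and included regulators of morphogenesis, a vessel ligand, a WNT enhancer and muscle-type proteins. MAB21L1, of a family needed for eye and body wall formation in the mouse, stood at 23.3, 22.5 and 72.9 CPM in splanchnopleure, against 0.363, 0.297 and 0 CPM in lateral plate (log2 fold change 7.23, SE 0.98, adjusted p = 0.00137). Its relative MAB21L2 stood at 15.5, 10.4 and 90.9 CPM in splanchnopleure, against 0.605, 1.93 and 0.200 CPM in lateral plate. Splanchnopleure 64 was several times higher than its fellows for both. Genes with the largest changes were named only where the libraries of both tissues did not overlap. This held for 4014 of 10071 genes tested and for 1691 of the 1697 that passed. COLEC10, a collectin that the liver secretes in the adult, was at 21.2, 32.6 and 93.0 CPM in splanchnopleure, against 0, 2.37 and 0.401 CPM in lateral plate (log2 fold change 5.73, SE 0.82, adjusted p = 0.00172). DUSP26, a phosphatase, was even across its libraries at 12.6, 13.5 and 16.6 CPM in splanchnopleure, against 0.121, 0.593 and 0.401 CPM in lateral plate (5.26, SE 0.53, adjusted p = 2.58e-04).

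RSPO1, a secreted protein that strengthens WNT signals, stood at 22.8, 13.3 and 26.9 CPM in splanchnopleure, against 0.726, 1.48 and 0.601 CPM in lateral plate (log2 fold change 4.45, SE 0.40, adjusted p = 1.66e-04). ANGPT1, the ligand of the endothelial receptor TEK, rose to 13.1, 13.5 and 20.5 CPM in splanchnopleure, against 0.242, 0.890 and 0.801 CPM in lateral plate (4.64, SE 0.47, adjusted p = 2.58e-04). KCNF1, a modifying subunit of potassium channels, had 160 counts in the splanchnopleure libraries against 3 in the lateral plate libraries, a ratio of 49.3 with an exact 95% Clopper-Pearson interval of 16.6 to 242, which covers counting error only. The homeobox gene MEOX2 rose by 5.0 (SE 0.69), CACNB2, a calcium channel subunit, by 3.94 (SE 0.49), and C2H10orf112 by 4.40 (SE 0.88). MYOM1, which in striated muscle ties thick filaments together, was at 14.3, 11.2 and 13.1 CPM in splanchnopleure, against 0, 1.04 and 0.601 CPM in lateral plate (4.60, SE 0.60, adjusted p = 0.00103). PDLIM3, a protein of actin bundles, rose by 4.62 (SE 0.82), with splanchnopleure libraries at 3.31, 6.89 and 17 CPM.

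**Figure D1:**
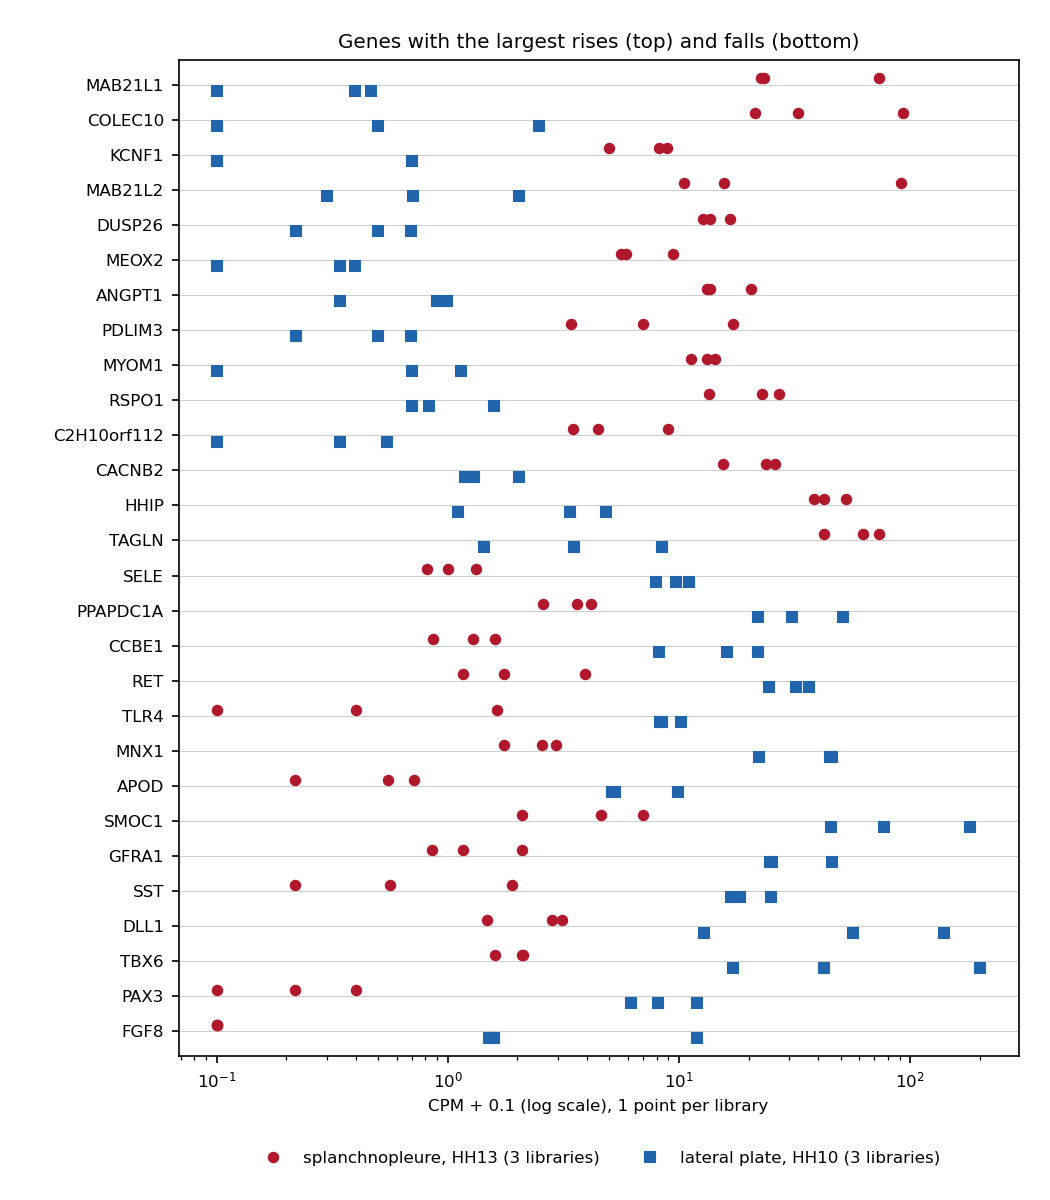
Levels of 28 of the 30 genes with the largest rises and falls in each library, as CPM plus 0.1 on a log axis. Circles are splanchnopleure and squares lateral plate libraries. The groups do not overlap for any of these genes because they were chosen that way. Lateral plate 30 is the highest square of TBX6 (201 CPM) and DLL1 (139 CPM).

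The largest falls included genes known from paraxial and intermediate mesoderm and from the growing posterior end. TBX6, a transcription factor of presomitic mesoderm, was at 1.5, 1.99 and 2.01 CPM in splanchnopleure, against 201, 17.1 and 42.1 CPM in lateral plate (log2 fold change -5.55, SE 0.86, adjusted p = 0.00239). DLL1, a Notch ligand of the same tissue, was at 3.0, 1.38 and 2.72 CPM in splanchnopleure, against 139, 12.8 and 56.7 CPM in lateral plate (-4.86, SE 0.75, adjusted p = 0.00242). Lateral plate 30 was the highest library for both. FGF8, a growth factor of the posterior end, had no count in any splanchnopleure library, against 11.9, 1.48 and 1.40 CPM in lateral plate, at least 11.7-fold lower against a floor of 3 counts per library, and at least 3.42-fold lower without lateral plate 30. PAX3, a transcription factor of the dorsal somite, had 3 counts in splanchnopleure against 179 in lateral plate, a 64.6-fold ratio (exact 95% interval 21.7 to 316). The homeobox gene MNX1 fell as well, with a log2 fold change of -3.99 (SE 0.87).

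GFRA1 and RET form the receptor for the ligand GDNF, which guides the nephric duct. GFRA1 stood at 0.751, 1.99 and 1.06 CPM in splanchnopleure, against 25.2, 24.6 and 45.7 CPM in lateral plate (log2 fold change -4.64, SE 0.67, adjusted p = 0.00181). RET stood at 1.65, 3.83 and 1.06 CPM in splanchnopleure, against 24.4, 31.9 and 36.5 CPM in lateral plate (-3.85, SE 0.53, adjusted p = 0.00146). The pair fell together. SMOC1, a secreted modulator of BMP signals, was at 4.51, 1.99 and 6.86 CPM in splanchnopleure, against 181, 45.5 and 76.9 CPM in lateral plate (-4.47, SE 0.61, adjusted p = 0.00141). The log2 fold change was -4.69 (SE 0.77) for SST, which encodes the hormone somatostatin, -4.08 (SE 0.75) for the lipocalin APOD, -3.92 (SE 0.80) for the innate immune receptor TLR4 and -3.70 (SE 0.47) for CCBE1, needed for lymphatic vessels. PPAPDC1A, a lipid phosphatase, fell by 3.38 (SE 0.34), and SELE, an adhesion molecule of activated endothelium, fell by 3.32 (SE 0.37).

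The tissue label was checked with regulators of splanchnic mesoderm, limb mesenchyme and heart. Of 6 tested factors of gut mesenchyme, 3 passed as higher and 2 of them rose, with none lower; FOXF1, BARX1 and NKX2-3, defining members of that list, are not measured in this table. TCF21, a factor of splanchnic mesoderm, was at 91.8, 65.1 and 65.5 CPM in splanchnopleure, against 3.99, 11.1 and 4.61 CPM in lateral plate (log2 fold change 3.49, SE 0.46, adjusted p = 0.00108). Lateral plate 31 was the highest lateral plate library for TCF21. Among 10 heart field regulators 4 passed as higher and 1, the chromatin remodelling subunit SMARCD3, rose (0.94, SE 0.18); 1 passed without lateral plate 30, 1 without lateral plate 32 and 1 without splanchnopleure 64. HAND1 passed with all libraries (1.35, SE 0.37, adjusted p = 0.0293) but in 3 of the 6 fits that left out a library. Of 16 limb mesenchyme regulators 2 passed as higher and 6 as lower, and ALX4, SALL1 and SALL3 fell (log2 fold changes -2.84, -1.35 and -1.45, SE 0.55, 0.26 and 0.15); without splanchnopleure 64, 3 passed as lower. The 2 higher ones were the forelimb factor TBX5 (2.56, SE 0.76, adjusted p = 0.0407) and the hindlimb factor PITX1 (0.83, SE 0.21, adjusted p = 0.0228), which passed in 1 and 2 of the 6 fits that left out a library. TBX5 was at 18.5, 1.22 and 10.9 CPM in splanchnopleure, against 0.484, 2.97 and 2.0 CPM in lateral plate, and these overlap.

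Of the 5 tested smooth muscle genes 3 passed as higher and none as lower, and 2 rose. ACTA2, ACTG2, CNN1, DES, LMOD1 and SMTN, also among the 11 genes of that list, are not measured in this table. TAGLN, an early actin-binding marker of smooth muscle, was at 62.2, 42.3 and 73.0 CPM in splanchnopleure, against 1.33, 8.30 and 3.40 CPM in lateral plate (log2 fold change 3.78, SE 0.55, adjusted p = 0.00176). SYNPO2, of actin bundles, rose by 2.58 (SE 0.47). CALD1, a regulator of actomyosin, passed with all libraries (0.78, SE 0.18, adjusted p = 0.0165) and in 3 of the 6 fits that left out a library. MYH11, the myosin that defines mature smooth muscle, did not pass (-0.19, adjusted p = 0.69), nor did the kinase MYLK (0.38, adjusted p = 0.528). Of the sarcomere list 2 of 9 tested members passed as higher and 2 as lower, of which TPM1, a tropomyosin of many cell types, rose (0.82, SE 0.15, adjusted p = 0.00603). The other higher one was MYL4 (1.19, adjusted p = 0.0138). The lower ones were TNNT2 (-2.56, adjusted p = 0.0209) and TNNC1 (-0.60, adjusted p = 0.012), which passed in 2 and 4 of the 6 fits that left out a library. The median log2 fold change of the sarcomere list was -0.273. The summed level of the 5 measured smooth muscle genes ran from 304 to 544 CPM in splanchnopleure, against 213 to 254 CPM in lateral plate. TAGLN thus stood clear of the lateral plate libraries by a wider margin than the summed list, which CALD1 carries at 301, 204 and 339 CPM in splanchnopleure, against 140, 185 and 166 CPM in lateral plate.

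Endodermal cells belong to the dissected splanchnopleure, and their genes were measured in both tissues. The summed level of 16 genes of the endoderm list ran from 1038 to 1322 CPM in splanchnopleure, against 696 to 962 CPM in lateral plate. In somatopleure, the layer without endoderm, it still ran from 420 to 596 CPM, so the sum does not count endodermal RNA alone. Of 13 tested, 2 rose and none fell. GUCA2A, the gut peptide guanylin, was at 490, 451 and 370 CPM in splanchnopleure, against 85.0, 196 and 209 CPM in lateral plate (log2 fold change 1.43, SE 0.28, adjusted p = 0.0071). The other was the tight junction protein CLDN3 (1.16, SE 0.24). EPCAM, of epithelia in general, was at 139, 249 and 156 CPM in splanchnopleure, against 192, 172 and 181 CPM in lateral plate (adjusted p = 0.993), and FOXA2, a defining endoderm factor, did not pass (0.75, SE 0.36, adjusted p = 0.181).

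Secreted proteins of liver and yolk sac moved further than the endoderm list. Of 18 tested plasma protein genes 12 passed as higher and none as lower, and 4 rose in every fit, with a median log2 fold change of 1.40 over the list; without lateral plate 32, 4 passed, and without lateral plate 30 or splanchnopleure 64, 6. FGB, a fibrinogen chain, was at 143, 102 and 103 CPM in splanchnopleure, against 2.78, 26.5 and 11.2 CPM in lateral plate (log2 fold change 3.12, SE 0.56, adjusted p = 0.00499). Its neighbour FGA, with no protein-coding gene between them in the RefSeq annotation, had 63 counts in splanchnopleure against 1 in lateral plate, a ratio of 58.2 (exact 95% interval 10.1 to 2340). HPX, which binds heme, rose by 2.90 (SE 0.55), and COLEC10 is the fourth. The summed level of the measured list ran from 336 to 447 CPM in splanchnopleure, against 96.5 to 134 CPM in lateral plate. How far the share of endodermal cells in each piece moves with these values was not tested.

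Endothelial RNA was present in both tissues: the summed level of 22 endothelial genes ran from 1738 to 2579 CPM in splanchnopleure, against 1417 to 1830 CPM in lateral plate, and these ranges overlap. VWF, the clotting factor carrier of endothelium, was at 98.6, 121 and 185 CPM in splanchnopleure, against 8.35, 25.9 and 12.6 CPM in lateral plate (log2 fold change 3.11, SE 0.43, adjusted p = 0.00141). The scavenger receptor STAB1 rose by 0.75 (SE 0.15). KDR, the main VEGF receptor, did not pass (0.23, adjusted p = 0.486). In all, 3 of the 22 passed, each as higher (13.6%, against 9.07% of all genes), with 5 higher without splanchnopleure 61. Of 23 listed blood cell genes 6 are measured, without globins, GATA1 or RUNX1, and none of these 6 passed. Their summed level ran from 231 to 284 CPM in splanchnopleure, against 345 to 420 CPM in lateral plate. Whether the share of blood cells differs was not tested.

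Matrix genes made up a broad group of rises. Of 25 collagens tested, 11 passed as higher and 1 as lower, of which 10 rose and 1 fell; the median log2 fold change of the list was 0.99. COL3A1, of loose connective tissue and vessel walls, was at 1301, 1357 and 2973 CPM in splanchnopleure, against 134, 440 and 141 CPM in lateral plate (log2 fold change 2.98, SE 0.47, adjusted p = 0.00271). Splanchnopleure 64 was the highest and lateral plate 31 the nearest from below, with no overlap. The other fibril collagens COL1A1 and COL1A2 rose by 1.80 (SE 0.33) and 1.20 (SE 0.19), COL11A1 by 0.91 (SE 0.16) and the fibril-associated COL12A1 by 1.43 (SE 0.18). COL5A2, the direct neighbour of COL3A1 in the RefSeq annotation, did not pass (0.40, SE 0.15, adjusted p = 0.0828). COL19A1 rose to 7.96, 8.27 and 20.2 CPM in splanchnopleure, against 0.726, 1.78 and 1.40 CPM in lateral plate (3.24, SE 0.57). COL9A2, a cartilage and notochord collagen, fell, at 12.5, 11.3 and 10.3 CPM in splanchnopleure, against 46.4, 21.5 and 36.5 CPM in lateral plate (-1.62, SE 0.27, adjusted p = 0.00375).

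Basement membranes separate epithelia and vessels from mesenchyme. COL4A1 and COL4A2, the common collagens of such membranes, lie side by side in the annotation and rose alike: COL4A1 stood at 302, 305 and 405 CPM in splanchnopleure, against 116, 174 and 135 CPM in lateral plate (log2 fold change 1.25, SE 0.18, adjusted p = 0.00187). COL4A2 rose by 1.05 (SE 0.20). COL18A1, the source of endostatin, was at 1704, 2081 and 2246 CPM in splanchnopleure, against 1015, 1292 and 1250 CPM in lateral plate (0.76, SE 0.11). Among 19 other basement membrane genes 7 passed as higher and 1 as lower, and 5 rose: the linker NID1 (1.52, SE 0.27), perlecan HSPG2 (0.80, SE 0.12), the laminin chain LAMC3 (2.43, SE 0.38), and FREM1 and FREM2, which anchor epithelium to mesenchyme (1.88, SE 0.36, and 1.75, SE 0.25). The laminin chain LAMA5 went the other way, at 649, 795 and 973 CPM in splanchnopleure, against 1388, 1244 and 1318 CPM in lateral plate (-0.71, SE 0.13, adjusted p = 0.00519). LAMB1 and LAMC1, the chains that most laminins share, did not pass (-0.03 and 0.12).

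Of 32 further matrix genes 13 passed as higher and 2 as lower, of which 7 rose and 1 fell; 8 passed as higher without lateral plate 32 and 8 without splanchnopleure 64. The small proteoglycans DCN and LUM, which space collagen fibrils and are direct neighbours in the annotation, rose together. DCN was at 416, 406 and 539 CPM in splanchnopleure, against 43.2, 66.1 and 63.9 CPM in lateral plate (log2 fold change 2.98, SE 0.25, adjusted p = 1.32e-04). LUM rose by 1.98 (SE 0.30). Tenascin TNC was at 40.1, 40.9 and 36.2 CPM in splanchnopleure, against 5.81, 15.3 and 9.21 CPM in lateral plate (1.96, SE 0.35), and THBS1, SPARC, MMP2 and LOXL2, which act on matrix assembly, turnover and cross-linking, rose by 1.38, 0.99, 1.03 and 0.93. HAPLN1, which links hyaluronan to proteoglycans, fell to 30.4, 32.8 and 38.3 CPM in splanchnopleure, against 129, 91.8 and 93.1 CPM in lateral plate (-1.63, SE 0.17, adjusted p = 2.58e-04). FN1, the most general of the matrix proteins, did not pass (0.46, SE 0.19, adjusted p = 0.117). Of 10 integrins, the matrix receptors, ITGA8 and ITGAV rose, by 1.13 (SE 0.19) and 1.11 (SE 0.17), and 3 passed in all.

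Cadherins and protocadherins bind cells to each other. Of 27 tested, 9 passed as higher and 4 as lower, of which 7 rose and 3 fell; without splanchnopleure 61, 7 passed as lower. CDH2, the N-cadherin of mesoderm and muscle, was at 804, 668 and 687 CPM in splanchnopleure, against 441, 385 and 401 CPM in lateral plate (log2 fold change 0.81, SE 0.11, adjusted p = 0.00125). CDH6 rose by 2.14 (SE 0.28) and CDH17, a cadherin of gut epithelium, by 3.21 (SE 0.56), with libraries at 8.41, 7.5 and 17.5 CPM in splanchnopleure, against 1.09, 1.48 and 1.0 CPM in lateral plate. Protocadherins went both ways: PCDH15, PCDH10, PCDH9 and PCDH12 rose, by 2.66, 2.58, 2.48 and 0.93. The falls were the protocadherins PCDH1 (-1.26, SE 0.12), PCDH17 (-1.56, SE 0.33) and PCDH8, a gene of the presomitic mesoderm (-2.29, SE 0.33). FAT4, a giant cadherin of planar polarity, rose to 1052, 893 and 935 CPM in splanchnopleure, against 105, 184 and 123 CPM in lateral plate (2.81, SE 0.25, adjusted p = 1.66e-04). In the list for the epithelium to mesenchyme transition, SNAI2 alone passed as lower and CDH2 alone as higher. The median log2 fold change of that list was 0.045. SNAI2, a repressor of epithelial genes, fell to 29.0, 32.5 and 31.6 CPM in splanchnopleure, against 93.4, 74.0 and 79.5 CPM in lateral plate (-1.41, SE 0.17, adjusted p = 5.94e-04). The regulators SNAI1, ZEB1, ZEB2 and TWIST1 did not pass (-0.60, 0.28, 0.09 and 0.19, adjusted p = 0.435, 0.139, 0.827 and 0.855).

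Guidance molecules steer axons and also migrating cells and vessels. Of 44 tested, 15 passed as higher and 4 as lower, of which 10 rose and 3 fell; without lateral plate 30, 10 passed as higher. SLIT2 was at 144, 145 and 156 CPM in splanchnopleure, against 48.3, 64.3 and 53.1 CPM in lateral plate (log2 fold change 1.42, SE 0.12, adjusted p = 1.07e-04). SLIT3 and ROBO2, a ligand and a receptor of the same system, rose by 1.22 (SE 0.17) and 1.12 (SE 0.18). EFNB1 and EFNB2, membrane-bound ligands of Eph receptors, rose by 0.62 (SE 0.14) and 1.13 (SE 0.23), while the receptor EPHB1 fell by 0.69 (SE 0.14). Among semaphorins SEMA3G rose by 1.65 (SE 0.25) and SEMA6A by 1.14 (SE 0.24), and SEMA4D fell by 1.13 (SE 0.23). NRP1, a receptor for semaphorins and VEGF, fell to 206, 172 and 282 CPM in splanchnopleure, against 476, 462 and 543 CPM in lateral plate (-1.16, SE 0.17, adjusted p = 0.00204).

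**Figure D2:**
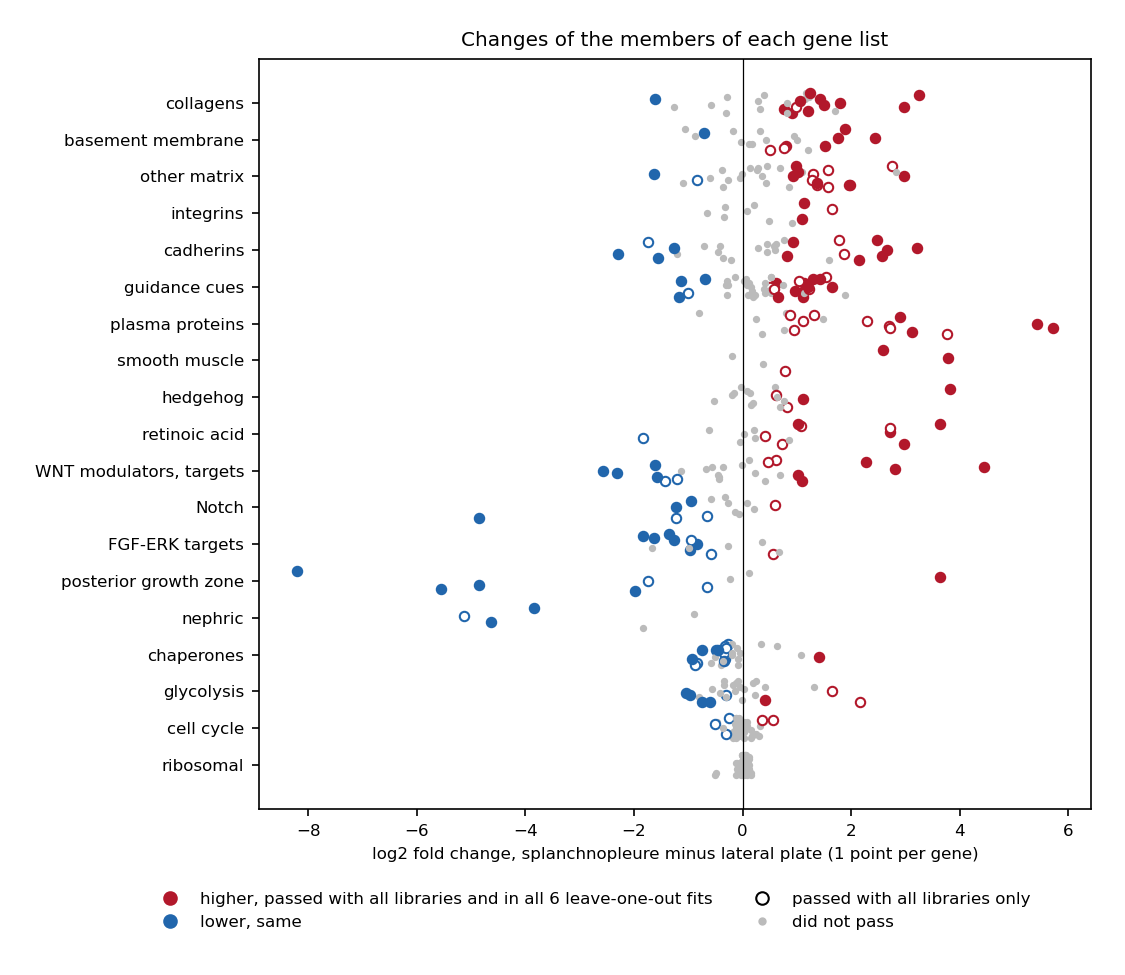
Log2 fold change of each tested member of 19 gene lists, splanchnopleure minus lateral plate, 1 point per gene. Coloured filled points passed with all libraries and in all 6 fits that left out a library. Open points passed with all libraries only, and small grey points did not pass. Collagens and plasma proteins spread to the right, FGF-ERK targets and chaperones to the left, and ribosomal genes stay near 0; the leftmost point is FGF8, which had no count in splanchnopleure, so its fitted value is not a measured fold.

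The WNT pathway acts through the nuclear factor LEF1 and switches on its own inhibitors NOTUM and NKD1 and the factor SP5. All of these fell. LEF1 was at 86.1, 99.8 and 74.7 CPM in splanchnopleure, against 302, 220 and 255 CPM in lateral plate (log2 fold change -1.58, SE 0.13, adjusted p = 1.29e-04). SP5 was at 9.77, 6.43 and 10.9 CPM in splanchnopleure, against 79.9, 42.0 and 40.1 CPM in lateral plate (-2.58, SE 0.31, adjusted p = 6.10e-04), NOTUM fell by 2.31 (SE 0.21) and NKD1 fell by 1.62 (SE 0.17). AXIN2, another feedback gene, did not pass (-0.56, SE 0.26, adjusted p = 0.163), and lateral plate 30 was the highest library at 71.4 CPM.

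The rises in the WNT list were secreted modulators and the receptor TNFRSF19 (1.10, SE 0.14). SFRP1, which binds WNT ligands, was at 324, 438 and 568 CPM in splanchnopleure, against 42.5, 92.1 and 54.3 CPM in lateral plate (log2 fold change 2.82, SE 0.27, adjusted p = 2.22e-04), SFRP5 rose by 2.27 (SE 0.41) and DKK3 by 1.02 (SE 0.19), beside the enhancer RSPO1. In all, 7 of 25 modulators and targets passed as higher and 6 as lower, of which 5 rose and 4 fell. Among 21 WNT ligands and receptors 5 passed as higher and 2 as lower (3 as higher without lateral plate 30 or 32, 5 as lower without splanchnopleure 61), and the receptors FZD8 and FZD1 rose, FZD8 to 56.2, 54.2 and 62.5 CPM in splanchnopleure, against 7.99, 15.3 and 10.2 CPM in lateral plate (2.37, SE 0.30, adjusted p = 9.34e-04) and FZD1 by 0.91 (SE 0.18).

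Hedgehog signalling is held back by PTCH receptors and by HHIP, a membrane protein that binds the ligands and is itself a target of the pathway. HHIP was at 52.6, 38.3 and 42.4 CPM in splanchnopleure, against 3.27, 4.74 and 1.0 CPM in lateral plate (log2 fold change 3.83, SE 0.39, adjusted p = 2.58e-04). PTCH1 did not pass, at 177, 234 and 129 CPM in splanchnopleure, against 169, 180 and 160 CPM in lateral plate (0.08, adjusted p = 0.873). The ligands SHH and IHH did not pass either (adjusted p = 0.424 and 0.493), and 4 of 16 pathway genes passed as higher, with none lower; without lateral plate 30, 2 passed.

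In the BMP and TGF-beta family, 2 TGF-beta ligands, a co-receptor and a BMP receptor rose and BMP2 fell. TGFBR3, the co-receptor betaglycan, was at 100, 82.5 and 215 CPM in splanchnopleure, against 22.4, 41.1 and 29.0 CPM in lateral plate (log2 fold change 2.11, SE 0.35, adjusted p = 0.00342). TGFB2 and TGFB3 rose by 1.31 (SE 0.23) and 0.67 (SE 0.13), and the receptor BMPR1B by 1.12 (SE 0.22). The signalling receptors TGFBR1 and TGFBR2 did not pass (0.17 and 0.68, adjusted p = 0.518 and 0.0912). BMP2 was at 7.66, 7.96 and 7.34 CPM in splanchnopleure, against 16.6, 19.3 and 13.8 CPM in lateral plate (-1.12, SE 0.20, adjusted p = 0.00486). Of the 17 ligands and receptors tested 5 passed as higher and 2 as lower. Among 14 antagonists and target genes 1 passed, and none held in all 6 fits.

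Retinoic acid is made from retinol, which STRA6 takes up and RDH10 oxidizes, and is broken down by CYP26 enzymes. Genes of supply and of breakdown rose together. RDH10 was at 476, 396 and 462 CPM in splanchnopleure, against 33.0, 75.3 and 62.3 CPM in lateral plate (log2 fold change 2.98, SE 0.33, adjusted p = 4.15e-04). The carrier STRA6 rose by 1.02 (SE 0.10). CYP26A1 was at 27.2, 40.9 and 46.3 CPM in splanchnopleure, against 2.66, 4.0 and 2.40 CPM in lateral plate (3.64, SE 0.37, adjusted p = 2.58e-04), and CYP26B1 rose by 2.73 (SE 0.34). CYP26C1, next to CYP26A1 in the annotation, did not pass (0.86, SE 0.58, adjusted p = 0.343). ALDH1A2, which makes the acid itself, passed with all libraries (0.72, SE 0.21, adjusted p = 0.0364) and in 2 of the 6 fits that left out a library. Of the 15 tested 8 passed as higher and 1 as lower, and 4 rose; 4 passed as higher without lateral plate 30 and 4 without lateral plate 32.

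FGF signals switch on a set of genes through ERK. Of 14 such targets 8 passed as lower and 1 as higher, and DUSP4, DUSP6, ETV1, ETV4, ETV5 and IL17RD fell. DUSP6, a phosphatase of ERK, was at 43.3, 55.4 and 46.3 CPM in splanchnopleure, against 121, 121 and 128 CPM in lateral plate (log2 fold change -1.35, SE 0.11, adjusted p = 1.04e-04). Beside FGF8, FGF10 fell by 1.67 (SE 0.36) and FGF13 fell by 2.19 (SE 0.32), while the receptor FGFR2 rose, at 268, 298 and 267 CPM in splanchnopleure, against 117, 166 and 150 CPM in lateral plate (0.94, SE 0.19, adjusted p = 0.00805). In the Notch pathway the receptor NOTCH1 fell to 159, 189 and 167 CPM in splanchnopleure, against 357, 315 and 321 CPM in lateral plate (-0.95, SE 0.11, adjusted p = 5.48e-04), and the ligand JAG2 fell by 1.22 (SE 0.25) beside DLL1. Of 13 Notch genes 1 passed as higher and 5 as lower, and 3 as lower without lateral plate 30; the target HES1 did not (-0.14, adjusted p = 0.717).

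Several falls are of genes of tissues next to the lateral plate, and their levels varied between lateral plate libraries. The summed level of 14 genes of the posterior growth zone was 642, 502 and 672 CPM in splanchnopleure, against 1312, 650 and 714 CPM in lateral plate, so lateral plate 30 stood apart and lateral plate 31 overlapped the splanchnopleure. For TBX6 and DLL1 alone, lateral plate 31 was above every splanchnopleure library, at 17.1 and 12.8 CPM. In somatopleure the sum of the 14 genes still ran from 545 to 660 CPM, so it does not count RNA of the growth zone alone. Of the 9 tested 6 passed as lower and 4 fell (FGF8, TBX6, DLL1 and the homeobox gene CDX2, the last with -1.97, SE 0.33), while CYP26A1, which is on this list too, rose. For 9 somite genes the sum was 27.1, 31.5 and 22.5 CPM in splanchnopleure, against 94.3, 51.5 and 103 CPM in lateral plate, and MEOX1 fell by 2.0 (SE 0.34) where MEOX2 rose. Of 10 listed nephric genes 5 are measured, without PAX2, PAX8, LHX1, OSR1 or WT1. Their sum was 6.46, 38.0 and 6.75 CPM in splanchnopleure, against 95.1, 111 and 149 CPM in lateral plate. Splanchnopleure 61 stood above its fellows there through EMX2, at 0.601, 24.2 and 0.947 CPM in splanchnopleure, against 31.2, 23.3 and 35.7 CPM in lateral plate. For 12 ectoderm and neural genes the sum was 21.2, 141 and 28.8 CPM in splanchnopleure, against 135, 108 and 129 CPM in lateral plate, so splanchnopleure 61 stood at the level of the lateral plate. None of the 9 tested passed with all libraries (median log2 fold change -1.11), and 5 passed as lower without splanchnopleure 61. Of 5 Hox genes 1 passed as lower and none held in all 6 fits. Without lateral plate 30, 816 genes passed in all. TBX6, DLL1, FGF8, RET and GFRA1 were among them by choice, since a gene said to have fallen had to pass in that fit. How far neighbouring tissue in the dissected lateral plate moves with these values was not tested.

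Shares in the housekeeping lists are set beside those of all genes tested, 9.07% higher and 7.78% lower. None of 56 cytosolic ribosomal protein genes passed. Of 39 cell cycle genes 2 passed as higher (5.13%) and 3 as lower (7.69%), with none held in all 6 fits. Of 54 genes of oxidative phosphorylation 2 passed (3.7%). Of 56 mitochondrial ribosomal genes 3 passed as lower (5.36%), and of 15 cholesterol synthesis genes 2 as lower (13.3%). Of 26 junction and polarity genes 6 passed as higher and 1 as lower, of which CLDN3 rose and PARD6G fell (-0.62, SE 0.13); 1 passed as higher without lateral plate 30 and 3 without splanchnopleure 64. Chaperones went down in small steps: of 27 tested 12 passed as lower and 1 as higher, of which 5 fell and 1 rose, and the median log2 fold change was -0.33; 7 passed as lower without lateral plate 31, 5 without lateral plate 32 and 6 without splanchnopleure 64. CCT2 and CCT7, subunits of the chaperonin that folds actin and tubulin, fell (log2 fold changes -0.50, SE 0.08, and -0.34, SE 0.07), with CCT2 at 615, 510 and 486 CPM in splanchnopleure, against 771, 750 and 752 CPM in lateral plate. HSPD1, HSPH1 and the heat shock factor HSF2 fell (-0.45, -0.92 and -0.74), and HSPB1, a small heat shock protein that binds actin, rose by 1.41 (SE 0.24).

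Of 26 genes in the glycolysis and hypoxia list 3 passed as higher (11.5%) and 5 as lower (19.2%), of which 1 rose and 4 fell. The shares of all genes tested were 9.07% and 7.78%, so the higher share is near that of all genes. Without lateral plate 30, lateral plate 32 or splanchnopleure 64, 1 passed as higher. LDHB, a lactate dehydrogenase subunit, was at 1330, 1217 and 1177 CPM in splanchnopleure, against 2824, 2095 and 2355 CPM in lateral plate (log2 fold change -0.97, SE 0.12, adjusted p = 8.41e-04). Falls were also found for the glucose transporter SLC2A1 (-0.74, SE 0.11), hexokinase HK2 (-0.61, SE 0.13), the pyruvate kinase PKM2 (-0.50, SE 0.08) and the lactate carriers SLC16A1 (-0.69, SE 0.09) and SLC16A3 (-1.05, SE 0.20). GAPDH went the other way, at 4485, 4286 and 4264 CPM in splanchnopleure, against 2994, 3352 and 3469 CPM in lateral plate (0.41, SE 0.06, adjusted p = 0.00204). PKM2 and SLC16A1 are not on that list.

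Of 179 solute carriers tested 14 passed as higher and 19 as lower, of which 6 rose and 9 fell, near the shares of all genes; 6 and 10 passed without lateral plate 30, 8 and 11 without lateral plate 32 and 7 and 11 without splanchnopleure 64. SLC2A2, the low-affinity glucose carrier of liver and gut, was at 36.4, 46.9 and 66.3 CPM in splanchnopleure, against 6.54, 18.1 and 9.61 CPM in lateral plate (log2 fold change 2.13, SE 0.35, adjusted p = 0.00352). SLC7A9 and SLC3A1, which form an amino acid carrier of kidney and gut epithelium, rose by 2.34 (SE 0.39) and 1.46 (SE 0.20), and the ion carrier SLC12A1 by 3.77 (SE 0.74). Of 37 potassium channel genes 6 passed as higher (16.2%, against 9.07% of all genes) and 2 as lower (5.41%, against 7.78%). Beside KCNF1, KCNMA1, the large-conductance channel of smooth muscle, rose to 11.4, 15.6 and 50.2 CPM in splanchnopleure, against 4.36, 2.37 and 2.60 CPM in lateral plate (3.02, SE 0.55, adjusted p = 0.00519), and KCNT1 rose by 1.25 (SE 0.23).

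Among genes that passed with all libraries, the largest absolute differences in level were those of ACTB, COL3A1, PRTG, LDHB, PKM2, GAPDH, NCL, COL18A1, FAT4 and MYH9. PRTG, a cell surface protein of early undifferentiated tissue, was at 1348, 1115 and 867 CPM in splanchnopleure, against 2752, 2541 and 2589 CPM in lateral plate (log2 fold change -1.24, SE 0.19, adjusted p = 0.00235). NCL, the nucleolar protein nucleolin, fell by 0.34 (SE 0.07). ACTB, cytoplasmic actin, was at 9667, 9541 and 9935 CPM in splanchnopleure, against 6995, 8349 and 8081 CPM in lateral plate (0.32, SE 0.08, adjusted p = 0.0176), and the non-muscle myosin MYH9 at 2072, 2292 and 2889 CPM in splanchnopleure, against 1391, 1871 and 1637 CPM in lateral plate (0.57, SE 0.13, adjusted p = 0.0153). ACTB passed in 4 and MYH9 in 3 of the 6 fits that left out a library.

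The somatopleure, at the same stage HH13, shows which of these changes differ between the layers; as both layers are set against the same lateral plate libraries, the layers were compared directly. Between splanchnopleure and somatopleure, 1188 of 10071 genes were higher (11.8%) and 739 lower (7.34%) in splanchnopleure; without splanchnopleure 64, 1192 passed in all. Of the 913 genes higher than in lateral plate, 519 (56.8%) were also higher than in somatopleure, and of the 784 lower ones 339 (43.2%) were also lower. Among the 369 rises and 283 falls these were 283 and 153, and 234 and 112 did so in each fit that left out a splanchnopleure or somatopleure library. Somatopleure itself was called the same way from lateral plate for 152 of the 913 (16.6%) and 173 of the 784 genes (22.1%). It was called the opposite way for 83 and 6 of them. The share of all genes called between somatopleure and lateral plate is not given here. The layer test shares its splanchnopleure libraries with the choice of these genes, and the somatopleure change shares its lateral plate libraries. Scatter in a shared library moves both comparisons the same way, so these shares are not independent support.

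The 12 genes plotted by tissue, chosen after their values were seen, fell into 3 patterns, and each layer difference with a p under the threshold given here or in the next paragraph passed again in all 6 fits that left out a splanchnopleure or somatopleure library. FAT4, HHIP, GUCA2A and SLC2A2 were above the lateral plate in splanchnopleure and below it in somatopleure; HHIP stood at 0.125, 0.637 and 0.246 CPM in somatopleure 15, 60 and 63 (splanchnopleure minus somatopleure 6.98, adjusted p = 1.5e-05), and FAT4 at 32, 60.4 and 63.2 CPM (4.21, adjusted p = 5.5e-06). GUCA2A, at 0.874, 0.764 and 0.123 CPM in somatopleure, was all but absent there. SP5, LEF1, NOTUM and DUSP6 were low in splanchnopleure alone, with LEF1 at 283, 306 and 312 CPM in somatopleure (-1.79, adjusted p = 1.5e-05) and NOTUM at 82.0, 63.3 and 87.4 CPM (-3.06, adjusted p = 1.1e-05). TBX6, PAX3, SELE and PPAPDC1A were low in both later tissues: SELE stood at 0.250, 0.255 and 0.492 CPM in somatopleure, and none of the 4 passed between the layers (adjusted p of 0.068 to 0.93).

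Other members can be placed beside these. Of the 15 largest rises, KCNF1 and MAB21L2 alone did not pass between the layers (0.85 and 1.83, adjusted p = 0.417 and 0.108). KCNF1 and MAB21L1 also passed as higher in somatopleure than in lateral plate (4.56 and 4.55, adjusted p = 0.0217 and 0.0227). COL1A2, higher than in lateral plate by 1.20, was at 862, 886 and 752 CPM in somatopleure and did not pass between the layers (-0.10, adjusted p = 0.76), while COL3A1 did (2.06, adjusted p = 0.009), as did DCN (2.21, adjusted p = 1.4e-04). NRP1, LAMA5 and PCDH1 were lower than in lateral plate but higher than in somatopleure, by 1.45, 0.72 and 1.01 (adjusted p = 3.0e-04, 0.0028 and 2.9e-04). PCDH15, a protocadherin of hair cells that rose by 2.66 over lateral plate (SE 0.56), stood higher still at 54.7, 69.5 and 79.5 CPM in somatopleure (splanchnopleure minus somatopleure -2.71, adjusted p = 0.0014). Of 22 endothelial genes 18 were higher in splanchnopleure than in somatopleure, whereas 3 were higher than in lateral plate; their summed level was 428 to 612 CPM in somatopleure.

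**Figure D3:**
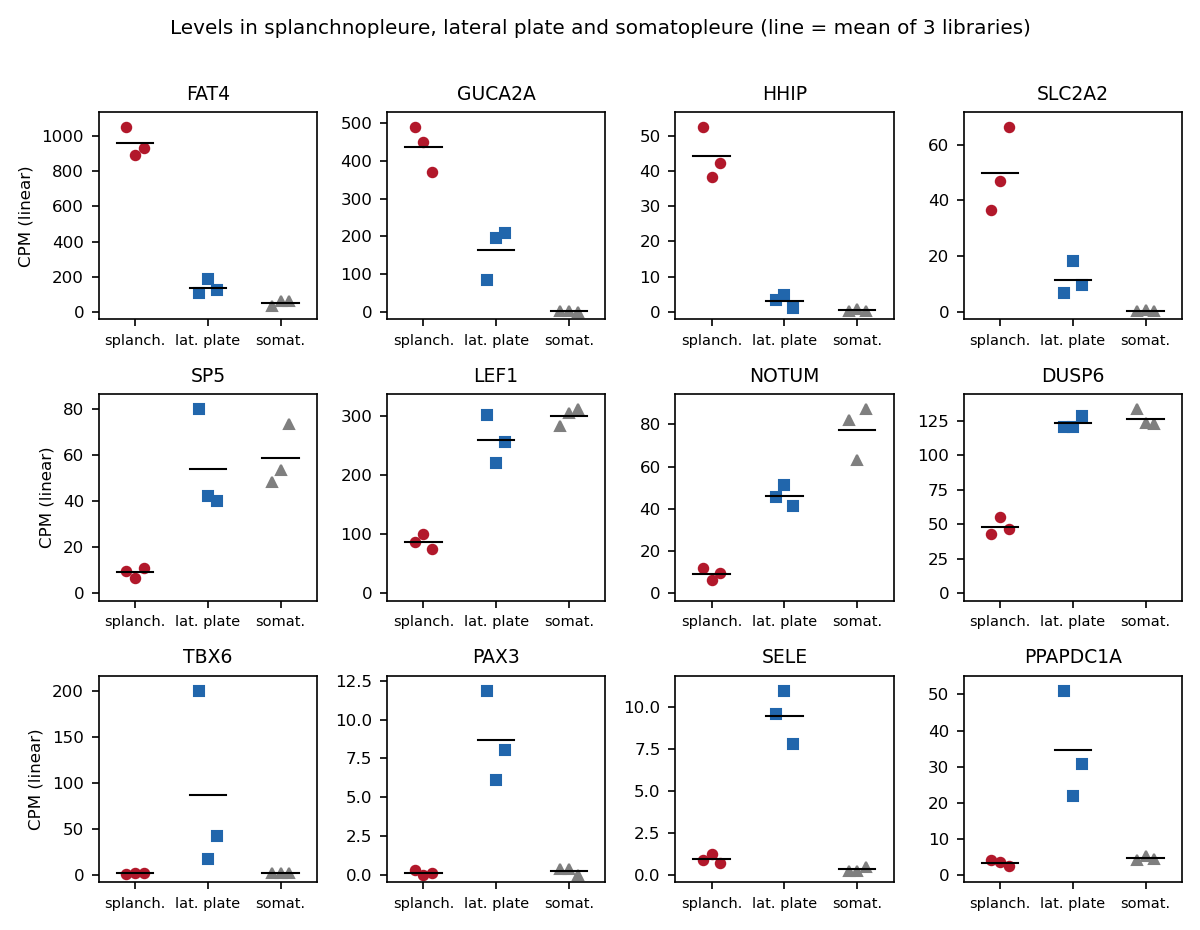
Levels of 12 genes in splanchnopleure (left), lateral plate (middle) and somatopleure (right), in CPM on linear axes, with 1 point per library and a line at the mean of 3. The top row is highest in splanchnopleure, the middle row is low in splanchnopleure alone, and the bottom row is high in lateral plate alone.

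The same tissues of the emu were set beside the chick. In the emu 1216 of 10640 genes were higher (11.4%) and 980 lower (9.21%) in splanchnopleure than in lateral plate. Of the chick genes, 867 of the 913 higher and 771 of the 784 lower ones were tested in the emu; 692 (79.8%) and 584 (75.7%) had the same sign there, and 318 (36.7%) and 236 (30.6%) passed the same way. Without emu splanchnopleure 6, which leaves the pooled library alone on that side and assumes that it varies like the other groups, 89 and 27 passed the same way. The difference between the species passed for 932 of 9736 genes (9.57%), and for fewer without emu splanchnopleure 6. Among the genes called in the chick and tested for it, it passed for 171 of 867 higher and 135 of 771 lower ones. The species test uses the same chick libraries that chose these genes. Scatter in those libraries moves both comparisons the same way, so these 2 counts are not independent support.

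Several matrix genes, picked after their values were seen, were raised further in the emu. COL3A1 stood at 8857 and 2848 CPM in emu splanchnopleure 6 and pool, against 2.06, 35.1 and 63.1 CPM in emu lateral plate 1, 23 and 8, with an SE of 1.05 for the log2 fold change of 7.46 (adjusted p = 0.0037); emu lateral plate 1, labelled HH13, was the lowest. DCN was at 576 and 433 CPM in emu splanchnopleure, against 2.74, 8.13 and 10.4 CPM in emu lateral plate, and the chick change of 2.98 minus that of the emu was -3.17 (SE 0.66, adjusted p = 0.0094). Others raised further were COL1A2 (emu log2 fold change 4.73, species difference -3.52, adjusted p = 9.5e-04), TNC (4.47 and -2.50, adjusted p = 0.0116) and the cadherin CDH6 (6.04 and -3.89, adjusted p = 0.0125). Of the 7 further matrix genes that rose in the chick, DCN and TNC alone had a called species difference. LUM, SPARC, LOXL2, MMP2 and THBS1 did not (adjusted p of 0.17 to 0.94). COL22A1 had opposite signs, 1.51 in the chick and -1.89 in the emu (adjusted p of the difference 0.005). The differences of DCN, COL1A2 and COL22A1 passed in all 11 fits that left out a library; without emu splanchnopleure 6 those of COL3A1, TNC and CDH6 did not (adjusted p = 0.0995, 0.0763 and 0.0874).

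Many leading chick changes had the same sign in the emu and no called difference between the species. COLEC10 stood at 209 and 44.9 CPM in emu splanchnopleure, against 0, 0.739 and 1.35 CPM in emu lateral plate (adjusted p = 0.0028), and MAB21L1 at 93.8 and 44.5 CPM in emu splanchnopleure, against 0.229, 3.32 and 4.41 CPM in emu lateral plate (adjusted p = 0.0053). TCF21 was higher by 1.49 (adjusted p = 0.036), and LEF1 and DUSP6 were lower, with log2 fold changes of -1.60 and -1.94 (adjusted p = 0.0093 and 0.0046). Of these emu calls, COLEC10 and DUSP6 passed in all 5 fits that left out an emu library, MAB21L1 and LEF1 in 4 and TCF21 in 0. A p that misses the threshold does not show that the species are alike: the interaction of MAB21L1 was 2.54 with an SE of 1.57. MYOM1 differed plainly, at 69.7 and 84.2 CPM in emu splanchnopleure against 96.4, 94.1 and 76.7 CPM in emu lateral plate, with a log2 fold change of -0.21 where the chick had 4.60 (adjusted p of the difference 2.2e-04). SNAI2, which fell in the chick, was at 320 and 204 CPM in emu splanchnopleure, against 173, 244 and 246 CPM in emu lateral plate (0.24; difference -1.64, adjusted p = 0.0086, and 0.0672 without emu splanchnopleure 6).

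**Figure D4:**
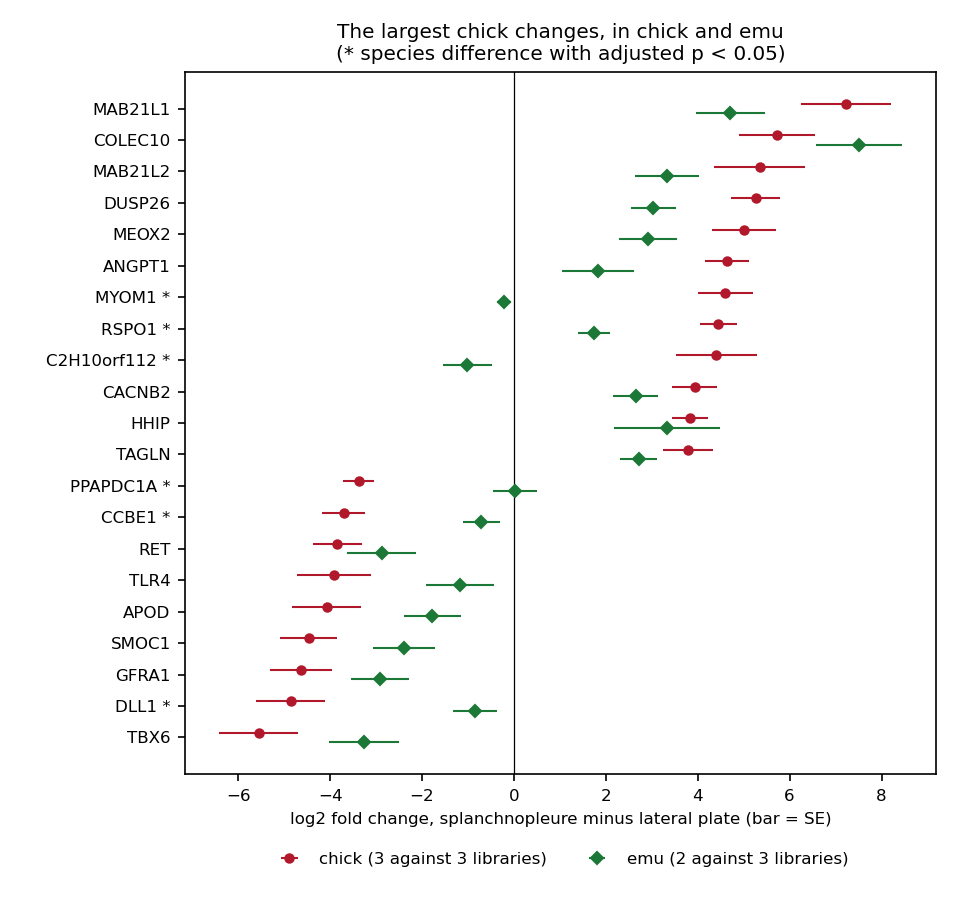
Log2 fold change, splanchnopleure minus lateral plate, with its SE as a bar, in chick (circles) and emu (diamonds) for the 21 of the 28 plotted genes with large chick changes that were tested in both species and had more than 3 counts in each chick tissue. An asterisk marks a species difference with an adjusted p under 0.05; MYOM1, C2H10orf112 and PPAPDC1A have emu values near or past 0 on the other side.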

How the data were processed

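RNA of early chick and emu tissue was sequenced, from 50 ng of total RNA and with 15 cycles of amplification per the labels. The deposited values are whole-number read counts per gene symbol, not normalized by the authors. STAR, featureCounts, DESeq and galGal4 are listed per the submitters' processing notes, without versions. The only genome build listed is galGal4, a chick build, and the genome to which the emu reads were aligned is not stated. Strand handling and the counting of reads that overlapping or near-identical genes share are not given in the sources used here. Counts of these are uncertain. The members, gene lists and named genes were chosen with earlier results of these data known.

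The chick table (9 libraries, 12338 symbols; 10037 current and 359 older ones in RefSeq's GRCg7b gene table, used for names and neighbours) went into a single fit (R 4.3.3, edgeR 4.0.16) with TMM scaling and edgeR's quasi-likelihood F test, after filterByExpr at its least count of 10 and least total of 15. The SE is the log2 fold change divided by the root of F. The emu table (8 libraries) was fitted alike, and the species difference is an interaction in a joint fit of 17 libraries over 9736 genes that passed the filter in each species; that last condition was added after the data were seen. Emu somatopleure 13 is labelled HH10. Named genes are the 15 largest rises and falls held in all 6 leave-one-out fits (mean log2 CPM of at least 1, groups not overlapping), up to 6 called members of each list with key members not called, and the 10 largest differences in CPM among called genes; further members were chosen after their values were seen. Intervals are exact at 95%, and a tissue at 0 was set against a floor of 3 counts per library. Replicate pairs had a chi-square per degree of freedom of 4.04 to 13.8, so none was a repeat of the same library, and the biological coefficient of variation was 0.168. Alternatives were DESeq2 1.42.0 and its size factors, no filter, the 6 libraries alone, limma-voom 3.58.1, a test against a minimum change, and leaving out each library. The fits were tested on simulated data. HH18 libraries are not used here. Results of a few of the named genes are not reported here.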

Additional observations from a re-analysis of the deposited data

Results flagged for a closer look

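In 7 of the genes with the largest rises, falls or differences in CPM, the change from lateral plate to splanchnopleure differed between chick and emu, by the interaction of the joint edgeR fit with Benjamini-Hochberg adjustment. Over all genes tested that interaction passed for 932 of 9736 (9.57%). The 7 were picked by their chick values, and the interaction uses the same chick libraries. That choice favours a species difference, so it is not independent support. The chick change exceeded that of the emu by 4.85 on the log2 scale for MYOM1 (adjusted p = 2.17e-04), 5.44 for C2H10orf112 (adjusted p = 0.00839) and 2.73 for RSPO1 (adjusted p = 0.00745). The difference was -3.39 for PPAPDC1A (adjusted p = 0.00421), and these 4 passed in all 11 fits that left out a library. It was -2.99 for CCBE1 (adjusted p = 0.0108), -4.47 for COL3A1 (adjusted p = 0.0157) and -4.01 for DLL1 (adjusted p = 0.018). Without emu splanchnopleure 6 those 3 did not pass, with adjusted p-values of 0.0752, 0.0995 and 0.108.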

How the results depend on the processing

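Of the 1697 genes called between splanchnopleure and lateral plate, 99.5% were called with DESeq2's size factors, 99.2% by DESeq2 and 94% by limma-voom. Against a minimum change of log2 1, 109 passed (75 higher, 34 lower). Leaving out each library in turn gave 816 to 1481 calls. The other counts ran from 1192 to 2164 of 1927 between splanchnopleure and somatopleure, 353 to 1607 of 2196 in the emu and 241 to 991 of 932 for the species difference; the lowest was without splanchnopleure 64 for the layers and without emu splanchnopleure 6 for both others. Emu calls numbered 932 without lateral plate 1, 1433 without 23 and 1235 without 8. Species differences numbered 600 and 621 without chick lateral plate 30 and 32 and 542 without emu lateral plate 1. Among 190 named genes, all chosen from those that passed with all libraries, no direction reversed under any alternative run, which that choice favours. Of the 190, 142 did not pass against the minimum change of log2 1 and 12 did not by limma-voom. Those that did not pass numbered 61 without lateral plate 30, 54 without splanchnopleure 64 and 50 without lateral plate 32. No paired analysis was possible because the tissues compared share no library number. Genes with few counts are limited by depth. The cause of these shifts was not tested.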
